A study of Mus musculus with 16 samples.

Results

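The 41 genes described here are the cell cycle and DNA replication genes of the series. They were chosen by name as a functional group, with earlier results of these data known. They are 41 of the 52916 gene symbols shared by the tumour and T cell tables, and all 41 were at or above 1 TPM in each of the 16 RNA sequencing libraries. TPM is the deposited relative transcript abundance, a level corrected for transcript length, so levels of different genes can be compared within a library.

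The libraries came from HM1 tumours, a mouse ovarian cancer model, and the mice differed in supplementation with the sugar mannose. From whole tumour tissue there were 5 mannose and 5 control libraries, and from CD8 T cells that had infiltrated tumours 3 mannose and 3 control libraries. The labels number the replicates without naming animals. The title of the study mentions anti-PD-1 treatment, and no label ties it to a group. P-values therefore measure the spread between these samples, which may be technical. Read depth is unknown, and 12345 to 14384 symbols reached 1 TPM in a library.

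A dividing cell licenses its replication origins by loading the MCM helicase with Cdc6 and Cdt1, and E2F1 and cyclin E then open S phase, in which ribonucleotide reductase and thymidylate synthase supply nucleotides and the clamp Pcna holds polymerases on DNA. Cyclin B with Cdk1, the Polo and Aurora kinases, centromere proteins and spindle motors then part the chromosomes, and the APC/C ubiquitin ligase with Cdc20 ends mitosis. Tumour cells and activated CD8 T cells both divide, and in bulk RNA a change in the number of dividing cells and a change in RNA per cell cannot be told apart.

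Several facts of the libraries touch the results. The value columns of all 6 CD8 tables are headed mannose, which goes against the sample labels of the 3 CD8 controls. The labels were followed, so the direction and size of every comparison that uses CD8 libraries, the interaction included, rest on them. The tumour tables hold 54013 entries each and those of CD8 cells 55438 entries each, so the deposited gene tables differ with the tissue. Use of 35 T cell receptor beta V segments was shared by 93.6% between CD8 mannose 1 and 2. It was shared by 96.0% between CD8 control 1 and 2, and by 42.2% to 62.7% in the other pairs of CD8 libraries. The labels do not say whether CD8 libraries 1 and 2 of a group came from the same source, so n = 3 counts libraries. Results are also given with libraries 1 and 2 averaged within each CD8 group. The 14 T cell markers summed to 3360 to 6413 TPM in CD8 mannose and 6469 to 7063 TPM in CD8 control libraries. The 12 macrophage markers summed to 1172 to 1538 TPM in CD8 mannose and 4268 to 4567 TPM in CD8 control libraries, and all 12 were lower. The 12 carcinoma markers summed to 1705 to 2638 TPM in CD8 mannose and 243.9 to 555 TPM in CD8 control libraries. In whole tumours they summed to 3232 to 4255 TPM with mannose and 3393 to 5457 TPM in controls, where Muc16 was listed at 0 and Krt7, Epcam, Wt1, Cldn4 and Pax8 averaged under 1 TPM.

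Promoter sequences of the members show what many of them share outside their expression. Division genes are known to be repressed in resting cells by the DREAM complex at a CHR element and to use CCAAT boxes bound by NF-Y, and replication genes are known E2F targets. RefSeq windows reaching from 250 bases before to 50 bases after a gene's start matched 34 of the 41 members (build GRCm38.p6, while the processing notes of the expression files name GRCm39). There were 35 windows, since Mcm7 has 2. The 5 windows below belong to the division genes called in the CD8 comparison, with Mcm5 as an example of the replication genes, each 5′ to 3′ on the strand of its gene. Plk1 (chr7:122159185-122159484, plus strand) and Hmmr (chr11:40733388-40733687, minus strand) rose with mannose in CD8 libraries. Cenpa (chr5:30666636-30666935, plus strand) and Cdca3 (chr6:124829926-124830225, plus strand) fell there. Mcm5 (chr8:75109259-75109558, plus strand) encodes a subunit of the helicase ring.
Plk1: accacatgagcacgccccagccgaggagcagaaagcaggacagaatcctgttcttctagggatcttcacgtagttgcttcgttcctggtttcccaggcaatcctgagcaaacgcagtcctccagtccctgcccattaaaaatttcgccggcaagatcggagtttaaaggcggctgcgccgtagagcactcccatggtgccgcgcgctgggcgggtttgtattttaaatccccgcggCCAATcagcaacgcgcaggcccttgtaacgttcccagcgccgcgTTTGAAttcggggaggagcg
Hmmr: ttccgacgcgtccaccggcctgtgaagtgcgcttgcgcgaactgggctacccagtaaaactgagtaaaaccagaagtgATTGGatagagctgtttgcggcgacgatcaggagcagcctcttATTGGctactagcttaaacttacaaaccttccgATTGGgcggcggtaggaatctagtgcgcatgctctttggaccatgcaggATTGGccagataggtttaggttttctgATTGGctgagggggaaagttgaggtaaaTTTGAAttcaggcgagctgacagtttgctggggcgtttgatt
Cenpa: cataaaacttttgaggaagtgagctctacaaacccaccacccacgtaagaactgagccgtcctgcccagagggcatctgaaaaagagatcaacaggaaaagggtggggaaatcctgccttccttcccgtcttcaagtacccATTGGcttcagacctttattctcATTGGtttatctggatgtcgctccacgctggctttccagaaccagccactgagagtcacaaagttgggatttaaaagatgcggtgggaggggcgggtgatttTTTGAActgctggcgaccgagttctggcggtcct
Cdca3: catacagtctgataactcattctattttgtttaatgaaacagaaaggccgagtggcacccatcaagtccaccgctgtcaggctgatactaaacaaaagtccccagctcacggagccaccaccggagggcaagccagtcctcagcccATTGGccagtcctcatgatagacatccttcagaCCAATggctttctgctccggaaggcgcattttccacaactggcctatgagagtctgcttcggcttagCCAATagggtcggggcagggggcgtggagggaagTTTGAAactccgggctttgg
Mcm5: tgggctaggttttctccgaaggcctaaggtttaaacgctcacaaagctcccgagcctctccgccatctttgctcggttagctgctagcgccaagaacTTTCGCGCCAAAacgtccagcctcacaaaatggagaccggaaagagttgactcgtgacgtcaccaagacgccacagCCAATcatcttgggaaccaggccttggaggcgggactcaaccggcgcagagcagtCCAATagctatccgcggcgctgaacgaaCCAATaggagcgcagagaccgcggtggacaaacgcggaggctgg

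Capitals mark TTTGAA (the CHR letters), CCAAT, and the E2F letters TTTCCCGC, TTTCGCGC, TTTGCCGC and TTTGGCGC, each searched on both strands, so ATTGG is CCAAT on the other strand. TTTGAA was found in 17 of the 35 member windows (48.6%), against 17.9% of all 32851 RefSeq windows. It stood in 16 of 21 windows of division genes and in 1 of 14 windows of replication genes, that of Mcm2. CCAAT stood in 28 member windows (80%, against 37.4% of all windows), among them all 17 with TTTGAA, and 6.95% of all windows held both. E2F letters stood in 7 member windows (20%, against 2.26% of all), of which 6 belonged to replication genes and 1 to Cdk1. Different motifs overlapped in 2 windows, those of Cdca8 and Mcm7, and the 2 E2F matches of Mcm5 overlap on opposite strands. The pair that rose and the pair that fell in CD8 libraries all carry TTTGAA and CCAAT, with the first base of TTTGAA 31 bases after the start in Plk1, 9 in Hmmr, 17 in Cenpa and 31 in Cdca3. A match of letters is a description of the sequence, not a measured site.

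**Figure D1:**
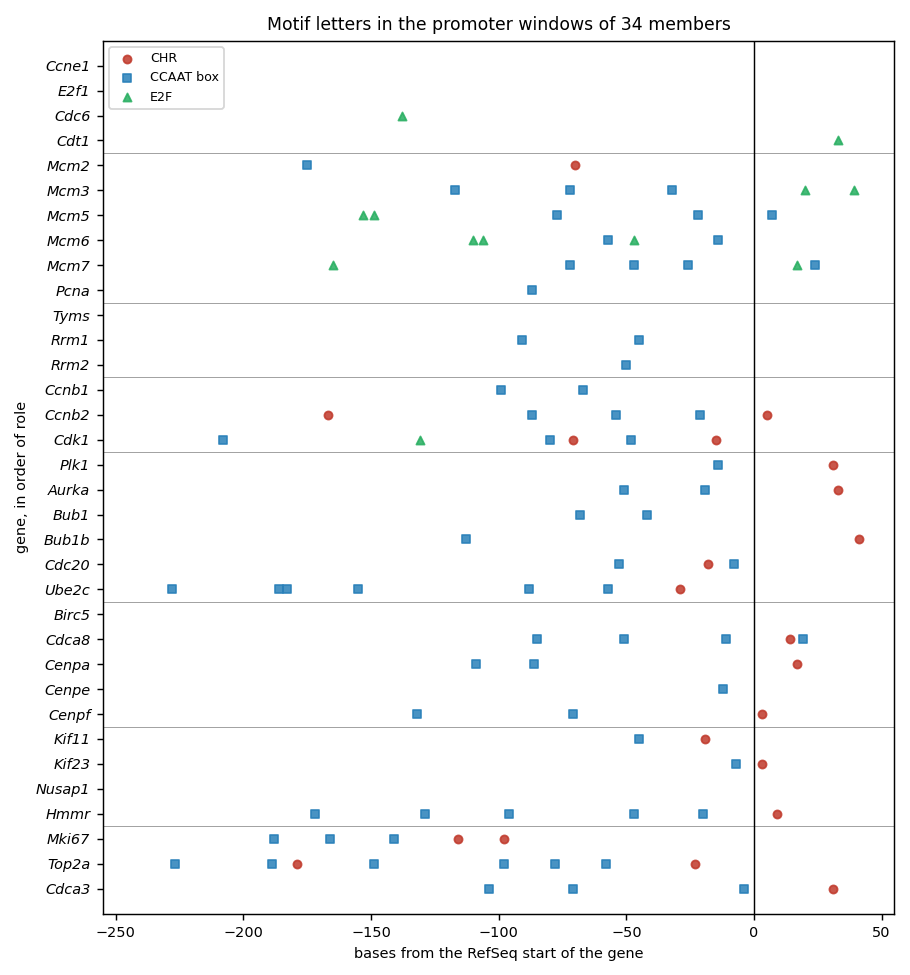
Positions of CHR, CCAAT and E2F letters in the promoter windows of 34 members, in bases from the RefSeq start, 1 gene a row and both Mcm7 windows on 1 row. CHR letters stood in 16 of 21 division windows and 1 of 14 replication windows, and E2F letters in 6 of the 14 replication windows.

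Levels differed widely among the members. Pcna had the highest mean level in whole tumours, at 176 ± 11.7 TPM with mannose and 143 ± 11.2 TPM in controls (SD, n = 5 each). Cenpf, a large kinetochore protein, had the lowest, at 4.36 ± 1.42 TPM with mannose and 2.73 ± 1.33 TPM in controls. Pcna also led in CD8 libraries, at 249 ± 21.1 TPM with mannose and 273 ± 7.28 TPM in controls (SD, n = 3 each). Next came, in CD8 mannose libraries, the topoisomerase gene Top2a at 154 ± 19.1 TPM and, in CD8 controls, Cenpa, the histone variant that marks centromeres, at 193 ± 14.3 TPM.

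The 6 subunits of the MCM ring, which act as a hexamer, were unequal as transcripts. Mcm6 was the highest in 15 of 16 libraries and Mcm3 in tumour control 1. Mcm4 was the lowest in the tumours and in the CD8 mannose libraries, 13 in all, and Mcm2 was the lowest in the 3 CD8 controls. Within a library the highest subunit exceeded the lowest 2.38 to 2.95 times in CD8 mannose and 2.42 to 2.79 times in CD8 control libraries. In tumours it did so 3.54 to 3.81 times with mannose and 3.76 to 6.49 times in controls, the last value being that of control 1.

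**Figure D2:**
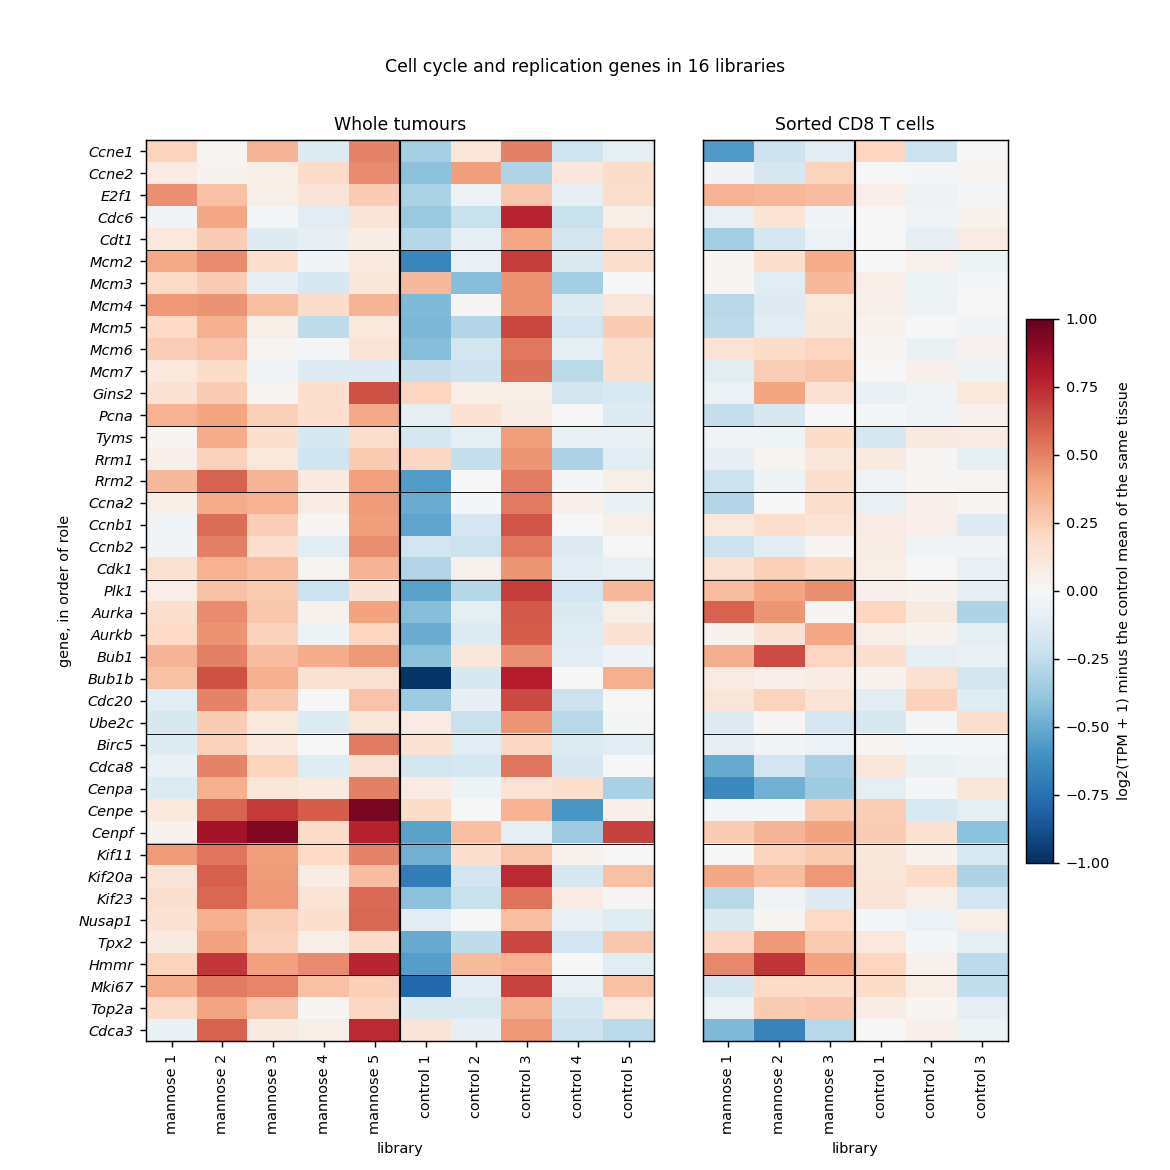
Levels of the 41 members (rows, by role) in each library (columns, mannose left of control within tumours and CD8 T cells), as log2(TPM + 1) minus the control mean of the same tissue, with colours ending at -1 and 1. Tumour control 3 held the highest control value for 36 members and tumour control 1 the lowest for 28, and Cenpa and Cdca3 were low in all 3 CD8 mannose libraries.

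In whole tumours, no member differed between mannose and control past an adjusted p of 0.05 (limma on log2(TPM + 1), Benjamini-Hochberg adjustment), and nor did any of the 13282 genes tested (0 called, 0%, smallest adjusted p = 0.754). All 41 members had a positive log2 difference, as had 74.4% of all genes, and their median difference was 0.22, against 0.12 for all genes. The log2(TPM + 1) scale understates the change of low genes. At an unadjusted p under 0.05 there were 7 members, all higher with mannose, while 5.53% of all genes were higher by that measure. They were Pcna, Mcm4, Bub1, Cenpe, Kif11, Nusap1 and Hmmr.

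Among the replication genes, the sliding clamp Pcna was the one member whose groups did not overlap, as 1.51% of all genes also lay above their controls. It measured 182, 187, 168, 160.2 and 185 TPM in mannose tumours 1 to 5, against 134, 157, 149.8, 142 and 129.99 TPM in control tumours 1 to 5. The lowest mannose tumour, number 4, lay just above the highest control, number 2. The log2 difference was 0.31 ± 0.09 (SE, limma unadjusted p = 0.00496, adjusted p = 0.754). Mcm4 averaged 30.4 ± 2.31 TPM with mannose and 24.2 ± 5.75 TPM in controls (SD, n = 5 each), a log2 difference of 0.34 ± 0.15 (SE). Its mannose values of 27.1 to 32.7 TPM lay within its control values of 17.1 to 32.8 TPM. Mcm7, of the same ring, averaged 73.9 ± 7.31 TPM with mannose and 75.4 ± 20.2 TPM in controls, and the median difference over the 8 helicase and clamp members was 0.18.

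The genes of the switch into S phase had a median log2 difference of 0.17. E2f1, the transcription factor that drives this switch, averaged 23.5 ± 2.67 TPM with mannose and 19.9 ± 3.27 TPM in controls (SD, n = 5 each), a log2 difference of 0.24 ± 0.13 (SE). The licensing factors lay closer together. Cdc6 averaged 9.93 ± 1.54 TPM with mannose and 9.78 ± 3.896 TPM in controls, and Cdt1 averaged 37.3 ± 4.15 TPM with mannose and 36.5 ± 7.48 TPM in controls. Of the nucleotide suppliers, the ribonucleotide reductase subunit Rrm2 averaged 61.1 ± 7.45 TPM with mannose and 48.7 ± 12.8 TPM in controls, and the thymidylate synthase gene Tyms averaged 51.97 ± 7.13 TPM with mannose and 48.1 ± 8.87 TPM in controls (SD, n = 5 each). Rrm1, the large subunit of the reductase, averaged 50.1 ± 6.25 TPM with mannose and 47.6 ± 11.1 TPM in controls.

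The spindle members had the highest median log2 difference of the role groups, 0.34. They held 3 of the 7 members with an unadjusted p under 0.05, namely Hmmr, Kif11 and Nusap1. Cenpe, a kinesin of the kinetochore, was counted among the centromere members and not among these. It measured 5.91, 8.62, 9.42, 8.78 and 11.4 TPM in mannose tumours and 6.28, 5.44, 7.19, 3.28 and 5.64 TPM in control tumours. Mannose 1 lay inside the control range and the other 4 lay above it. The log2 difference was 0.59 ± 0.20 (SE, limma unadjusted p = 0.0134, adjusted p = 0.754). Hmmr, a spindle assembly protein also known as a hyaluronan receptor, measured 11.5, 16.4, 13.2, 13.9 and 17.2 TPM in mannose tumours and 6.30, 12.3, 12.6, 9.74 and 8.88 TPM in control tumours. Here too mannose 1 was the one mannose tumour inside the control range, and the log2 difference was 0.51 ± 0.19 (SE). The spindle motor Kif11 measured 13.1, 14.2, 12.99, 11.03 and 13.8 TPM in mannose tumours and 6.50, 10.8, 11.7, 9.72 and 9.54 TPM in control tumours, with mannose 4 inside the control range. Its log2 difference was 0.42 ± 0.15, that of the checkpoint kinase Bub1 0.39 ± 0.16 and that of the microtubule binding protein Nusap1 0.30 ± 0.13 (SE, limma adjusted p = 0.754 for each).

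The proliferation marker Mki67 measured 17.9, 20.1, 19.7, 17.03 and 16.4 TPM in mannose tumours and 7.55, 12.7, 22.6, 13.02 and 17.1 TPM in control tumours. Control 3 exceeded all mannose tumours, control 5 lay among them and the other 3 controls lay below them. The log2 difference was 0.38 ± 0.23 (SE, limma adjusted p = 0.754). The mitotic kinase Plk1 had a log2 difference of 0.11 ± 0.21, the centromere histone Cenpa 0.19 ± 0.14 and the mitotic entry factor Cdca3 0.28 ± 0.19 (SE, limma adjusted p = 0.8996, 0.768 and 0.757). The 4 mitotic cyclin and Cdk1 members overlapped as well, with a median of 0.24. Cyclin A2 (Ccna2), which acts in S phase and G2, had a log2 difference of 0.26 ± 0.17, and the B cyclins Ccnb1 and Ccnb2, partners of Cdk1, had 0.24 ± 0.20 and 0.20 ± 0.17 (SE). The passenger complex kinase Aurkb had 0.21 ± 0.18 and the checkpoint gene Bub1b 0.32 ± 0.27 (SE), with overlapping groups.

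Control tumours differed among themselves more than mannose tumours did. Control 3 held the highest control value for 36 of the 41 members, against 35.6% of all genes, and control 1 the lowest for 28, against 64.8% of all genes. Mannose 2 held the highest mannose value for 28 members and mannose 4 the lowest for 23, against 20.5% and 25.4% of all genes. The median coefficient of variation of the members was 13.7% with mannose and 26.3% in controls, against 14.5% and 25.2% over all genes in the same groups. Summed over the members, levels were 1746 to 2270 TPM with mannose and 1536 to 2394 TPM in controls. Without control 3, no member passed and 22 had an unadjusted p under 0.05, as had 7.22% of all genes in that fit. Positive members numbered 36 without control 1, where the median of all genes was 0.02, and 33 with median-ratio scaling, where it was also 0.02.

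Of 183 other cell cycle genes, grouped in 5 lists, 180 could be tested in tumours and none passed, with 35 higher and 0 lower at an unadjusted p under 0.05 (5.53% and 0.693% of all genes) and a median log2 difference of 0.23, against 0.12 for all genes. The list of kinetochore, spindle, condensin and cytokinesis genes held 19 of those 35. None of the genes named next passed (limma adjusted p = 0.754 each). The checkpoint kinase gene Chek1 averaged 4.52 ± 0.816 TPM with mannose and 2.898 ± 0.421 TPM in controls (SD, n = 5 each), a log2 difference of 0.50 ± 0.14 (SE). The condensin subunit Smc2 had a log2 difference of 0.54 ± 0.16, the replication kinase activator Dbf4 0.47 ± 0.15, the cohesin protector Sgo2a 0.46 ± 0.16 and the mitotic kinesin Kif15 0.40 ± 0.13 (SE). Among genes that restrain division, the retinoblastoma gene Rb1 had a log2 difference of 0.38 ± 0.13, its relative Rbl1 0.43 ± 0.19, the growth arrest gene Gas1 0.61 ± 0.31 and Pdcd4, an inhibitor of translation, 0.20 ± 0.11 (SE). Macrophage markers summed to 2239 to 4608 TPM with mannose and 1661 to 2933 TPM in controls, and the 10 fibroblast markers to 689 to 2348 TPM with mannose and 203.7 to 1435 TPM in controls, and their part in these values was not tested.

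**Figure D3:**
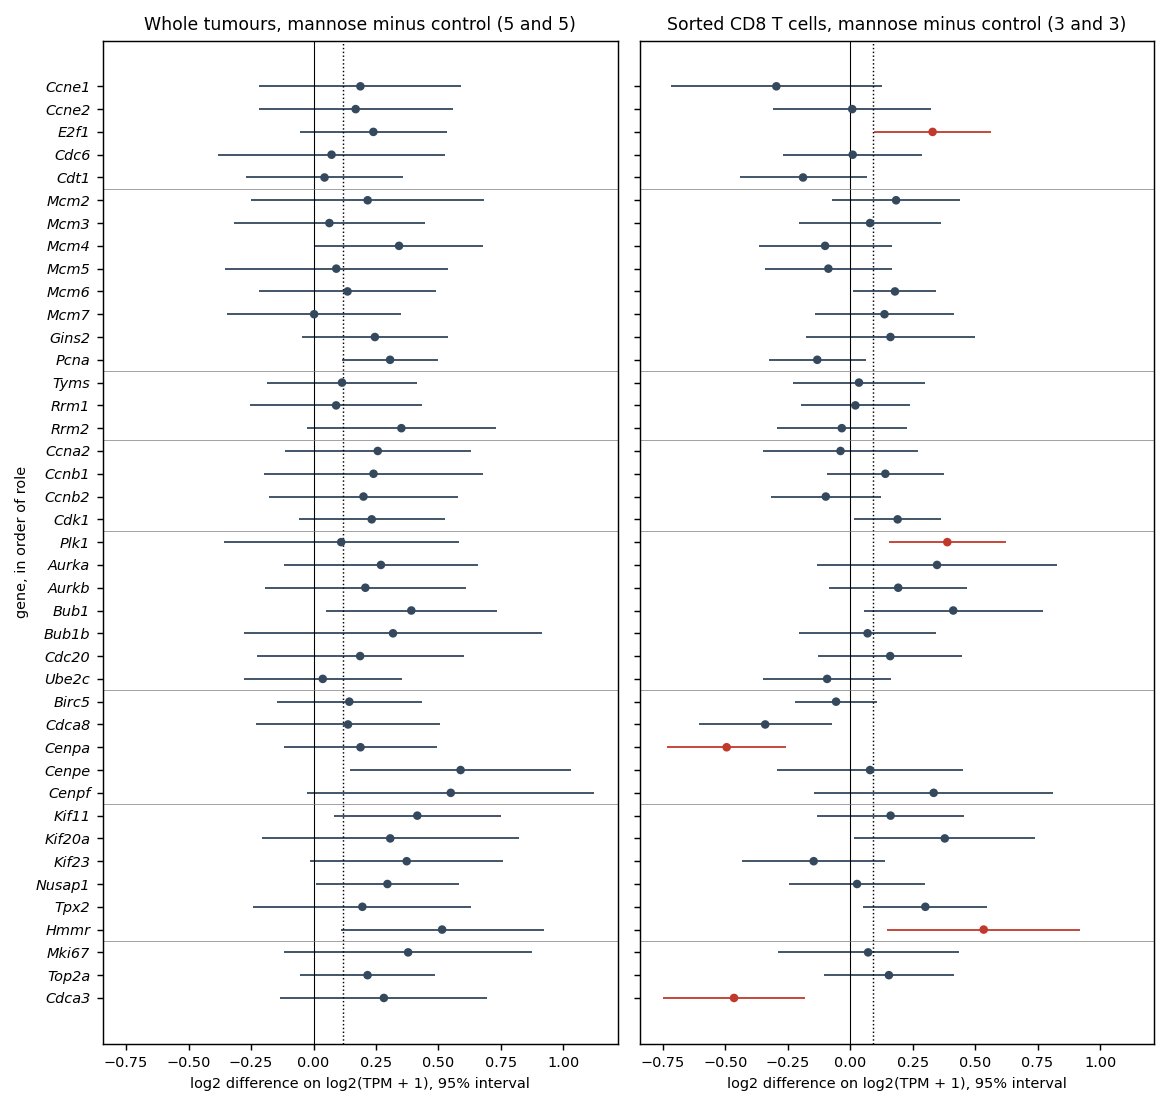
Log2 difference between mannose and control for each member with its 95% interval, in whole tumours (left, n = 5 each) and sorted CD8 T cells (right, n = 3 each), with red for an adjusted p under 0.05 and a dotted line at the median of all genes. All 41 tumour values lie right of 0 with none in red, and the CD8 panel has 3 red members right of 0 and 2 left of it.

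In sorted CD8 T cells, 3 members rose with mannose (E2f1, Plk1 and Hmmr), 2 fell (Cenpa and Cdca3) and 36 did not pass. Of all 14280 genes tested, 34.9% passed, 23.2% higher and 11.7% lower (limma, adjusted p under 0.05). That is 3306 genes higher and 1674 lower, a split of 2673 and 2305 with quantile normalization and 2752 and 2326 with median-ratio scaling. The median log2 difference of the members was 0.07, against 0.09 for all genes. Groups did not overlap for 10 members above and 4 below the controls, while 33.3% and 18.1% of all genes did so.

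E2f1 measured 16.2, 16.04 and 15.8 TPM in CD8 mannose 1 to 3, against 13.2, 12.1 and 12.4 TPM in CD8 control 1 to 3. The 3 mannose libraries were nearly equal and all lay above the controls. The log2 difference was 0.33 ± 0.10 (SE, limma adjusted p = 0.0402). The other 4 genes of the S phase switch did not pass. Cyclin E1 (Ccne1), a partner of Cdk2, averaged 8.35 ± 1.499 TPM with mannose and 10.5 ± 1.72 TPM in controls, and Cdc6 averaged 9.52 ± 0.833 TPM with mannose and 9.42 ± 0.241 TPM in controls (SD, n = 3 each).

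Plk1, the Polo kinase of mitotic entry and spindle assembly, measured 23.1, 24.5 and 25.8 TPM in CD8 mannose and 19.2, 18.9 and 17.3 TPM in CD8 control libraries. The gap between the groups was wider than the range within either. The log2 difference was 0.39 ± 0.10 (SE, limma adjusted p = 0.0226). Hmmr measured 12.5, 14.9 and 11.8 TPM in CD8 mannose and 10.2, 8.98 and 7.09 TPM in CD8 control libraries, again without overlap. Its log2 difference was 0.53 ± 0.16 (SE, limma adjusted p = 0.0425).

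Cenpa measured 122, 138 and 149.7 TPM in CD8 mannose and 179.9, 189.8 and 208 TPM in CD8 control libraries. The highest mannose library lay well below the lowest control. The log2 difference was -0.49 ± 0.10 (SE, limma adjusted p = 0.0102). Cdca3, which promotes mitotic entry, measured 24.7, 20.9 and 27.8 TPM in CD8 mannose and 33.9, 35.2 and 32.6 TPM in CD8 control libraries, also without overlap. Its log2 difference was -0.46 ± 0.12 (SE, limma adjusted p = 0.0239). Cdca8, the borealin subunit of the chromosomal passenger complex, measured 30.6, 38.4 and 34.8 TPM in CD8 mannose and 47.9, 41.8 and 42.3 TPM in CD8 control libraries. All 3 mannose values lay below the controls, but the difference of -0.34 ± 0.11 did not pass (SE, limma adjusted p = 0.0546). Its partner Birc5, known as survivin, averaged 65.6 ± 1.26 TPM with mannose and 68.3 ± 0.916 TPM in controls (SD, n = 3 each) and did not pass either.

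At an unadjusted p under 0.05, 8 members were higher with mannose, while 29.6% of all genes were higher by that measure. Of the 8, E2f1, Plk1 and Hmmr passed. The other 5 did not (limma adjusted p from 0.0639 to 0.0965), and each lay above the controls in all 3 mannose libraries. Their log2 differences were 0.41 ± 0.15 for the checkpoint kinase Bub1, 0.38 ± 0.15 for the cytokinesis motor Kif20a, 0.30 ± 0.10 for the spindle assembly factor Tpx2, 0.19 ± 0.07 for the mitotic kinase Cdk1 and 0.18 ± 0.07 for the helicase subunit Mcm6 (SE). Cdk1 measured 109.9, 116 and 112 TPM in CD8 mannose and 104, 98.9 and 94.05 TPM in CD8 control libraries. Ccnb1 lay above the controls too, at 24.6 to 25.9 TPM in CD8 mannose and 20.7 to 24.2 TPM in CD8 control libraries, and its log2 difference of 0.14 ± 0.10 fell short of the threshold (SE, limma adjusted p = 0.307).

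**Figure D4:**
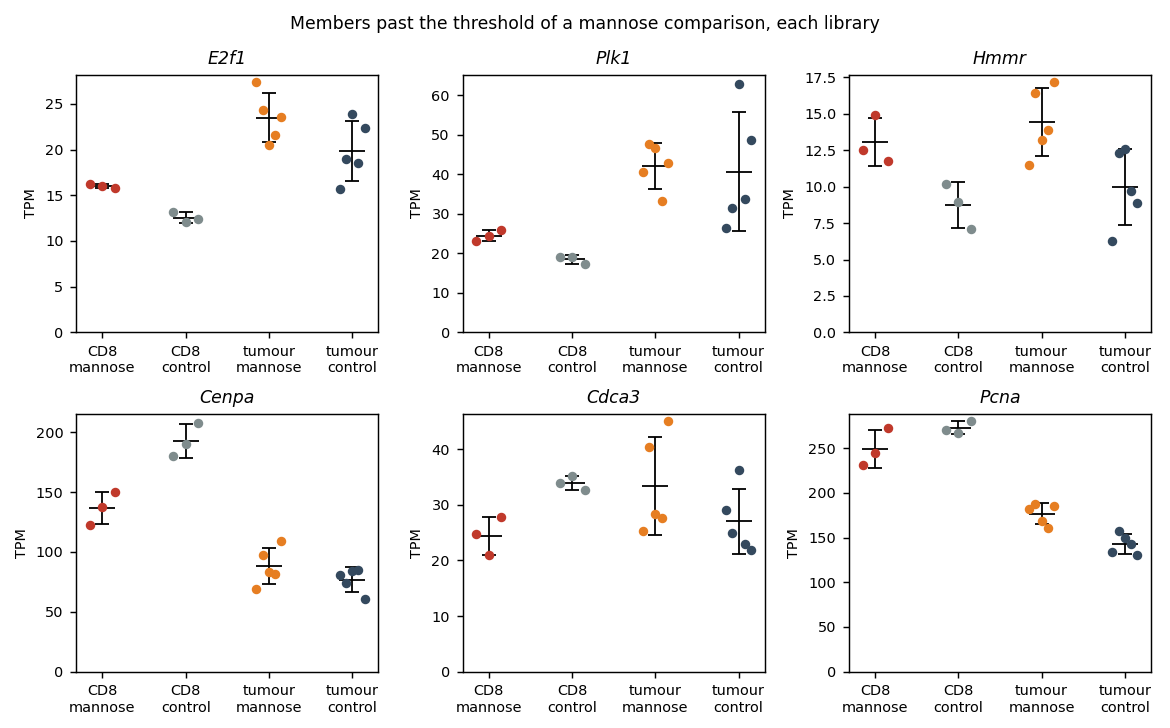
TPM in each library (points) with the mean and SD of each group, for E2f1, Plk1, Hmmr, Cenpa, Cdca3 and Pcna in CD8 mannose and control (n = 3 each) and tumour mannose and control libraries (n = 5 each). CD8 mannose points lie above CD8 controls for E2f1, Plk1 and Hmmr and below them for Cenpa and Cdca3, and the tumour groups are apart for Pcna.

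Rrm1, Ccna2, Ccnb2, Aurkb and Bub1b overlapped between the CD8 groups, with log2 differences of 0.02 ± 0.09, -0.04 ± 0.13, -0.10 ± 0.09, 0.19 ± 0.12 and 0.07 ± 0.12 (SE), and none passed. The general markers of proliferation did not pass in CD8 cells. Mki67 measured 36.7, 47.4 and 47.6 TPM in CD8 mannose and 47.1, 43.3 and 34.8 TPM in CD8 control libraries, with overlapping groups (log2 difference 0.07 ± 0.15, SE, limma adjusted p = 0.745). Top2a, the topoisomerase that untangles chromosomes, averaged 154 ± 19.1 TPM with mannose and 137 ± 8.09 TPM in controls (SD, n = 3 each). Pcna measured 231, 244 and 273 TPM in CD8 mannose and 271, 267 and 281 TPM in CD8 control libraries, a log2 difference of -0.13 ± 0.08 (SE, limma adjusted p = 0.253). Summed over the members, levels were 1916 to 2226 TPM with mannose and 2070 to 2110 TPM in controls.

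Ratios within a library do not depend on its scale. Cenpa over Plk1, both in TPM, gave 5.30 to 5.79 in CD8 mannose and 9.38 to 12.1 in CD8 control libraries, without overlap. In tumours the same ratio was 1.71 to 2.53 with mannose and 1.24 to 3.07 in controls. The summed chromosomal passenger and centromere members over the summed spindle members gave 1.78 to 1.89 in CD8 mannose and 2.36 to 2.92 in CD8 control libraries, and in tumours 1.63 to 2.05 with mannose and 1.57 to 2.97 in controls. These ratios were chosen after the gene values were seen and carry no test.

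The 5 calls depended on which samples entered and on the scaling. With the V segment sharing pairs averaged, no member passed, and the limma adjusted p was 0.0764 for Cenpa, 0.123 for Plk1, 0.149 for Hmmr, 0.155 for Cdca3 and 0.213 for E2f1. Leaving out 1 library at a time kept Cenpa each time (limma adjusted p 0.00654 to 0.0425). E2f1 and Cdca3 were kept without mannose 3 alone, with E2f1 otherwise at 0.0694 to 0.1299 and Cdca3 at 0.0515 to 0.0843. Plk1 was lost without control 1, 2 or 3 or mannose 2 (0.0506 to 0.0819) and Hmmr without control 2 or 3 or mannose 1 or 2 (0.09605 to 0.148). With quantile normalization E2f1, Plk1 and Hmmr were lost (limma adjusted p = 0.293, 0.0692 and 0.113), and with median-ratio scaling E2f1 and Hmmr (0.0935 and 0.0608), while Cenpa and Cdca3 passed under both. Other members were called in these fits. With quantile normalization 5 members passed in all (34.9% of all genes), 2 of them from the 5 calls. With median-ratio scaling 4 passed (35.6% of all genes), 3 of them from the 5 calls. Without mannose 3, 7 passed (41.4% of all genes), among them the 5. Without a filter on low values E2f1 and Hmmr were lost (0.0505 and 0.08502), and in 1 fit of all 16 libraries Cenpa alone passed (0.0321). Scaling by T cell markers, whose levels are lower in the mannose libraries, raises by construction nearly every gene there, and it moved the median of all genes to 0.70. On that scale 23 members and 6154 of the 14280 genes were higher and 0 members and 389 genes lower. Cenpa and Cdca3 had 0.18 and 0.19, which is -0.52 and -0.51 relative to that median. The T cell, macrophage and carcinoma marker sums given above differ between the CD8 groups, ribosomal protein genes summed to 50580 to 54770 TPM with mannose and 47450 to 49380 TPM in controls, and the part of these in the member values was not tested.

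Of the other cell cycle genes, 182 could be tested in CD8 cells, with 28 higher and 6 lower and a median log2 difference of 0.11, against 0.09 for all genes, of which 23.2% were higher and 11.7% lower. That split was 15 higher and 13 lower with quantile normalization, 16 higher and 13 lower with median-ratio scaling, and 3 higher and 2 lower with the V segment sharing pairs averaged. In the list of G1 control genes 6 rose and 2 fell of 27. Cyclin D1 (Ccnd1), which starts G1 with Cdk4 and Cdk6, averaged 106 ± 15.2 TPM with mannose and 30.2 ± 9.87 TPM in controls (SD, n = 3 each), a log2 difference of 1.83 ± 0.25 (SE, limma adjusted p = 0.00303). The growth regulator Myc (0.88 ± 0.20) and the repressor E2f6 (0.82 ± 0.14) also rose. The call of Myc was lost in 3 of the 6 fits that left out 1 library. The kinase inhibitor gene Cdkn1a, which encodes p21, fell to 173 ± 8.31 TPM with mannose, against 312 ± 25.8 TPM in controls, a log2 difference of -0.84 ± 0.08 (SE, limma adjusted p = 0.00131).

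Beside the next 3 lists, 23.2% of all genes were higher and 11.7% lower. In the mitotic kinase and checkpoint list 3 rose and 2 fell of 31. Wee1, the kinase that restrains Cdk1 (0.70 ± 0.13), and Cdc25b, a phosphatase that activates it (0.40 ± 0.12), rose, and securin (Pttg1, -0.48 ± 0.14), which guards sister chromatids, fell. Lin54, the DREAM subunit that binds CHR elements, fell to 16.9 ± 2.41 TPM with mannose, against 29.3 ± 0.277 TPM in controls (log2 difference -0.77 ± 0.12, SE, limma adjusted p = 0.00462). In the kinetochore and cytokinesis list 7 rose and 1 fell of 59. The contractile ring protein Anln (1.24 ± 0.28), the kinetochore protein Zwilch (0.61 ± 0.19) and the cytokinesis activator Ect2 (0.60 ± 0.14) rose, and lamin B1 (Lmnb1, -0.71 ± 0.17) fell. In the replication list 3 rose and 0 fell of 49, the polymerase subunits Pola1 (0.50 ± 0.14) and Pold1 (0.34 ± 0.11) and the clamp loader Rfc1 (0.39 ± 0.12; log2 differences with SE). Leaving out 1 library at a time, Pold1, Rfc1, Cdc25b and Pttg1 were lost in 5 of 6 fits. Pola1 and Zwilch were lost in 4 of 6, and Anln, Ect2 and Lmnb1 in 2 of 6.

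In the list of 16 genes that brake division or mark quiescence, 9 rose and 1 fell, where 23.2% of all genes were higher and 11.7% lower, and the median log2 difference of the list was 0.31. Gas1 averaged 4.29 ± 0.776 TPM with mannose and 0.903 ± 0.636 TPM in controls (SD, n = 3 each), a log2 difference of 1.52 ± 0.28 (SE, limma adjusted p = 0.00696). The transcription factor Klf4 (1.23 ± 0.11) and the antiproliferative factor Tob1 (1.00 ± 0.10) rose, and Btg1 (-0.77 ± 0.18), of the same protein family as Tob1, fell. The call of Btg1 was lost in 3 of the 6 fits that left out 1 library. Most calls of this list were lost with the V segment sharing pairs averaged, as the split over all lists given above shows. In whole tumours Gas1 averaged 9.07 ± 3.14 TPM with mannose and 5.77 ± 2.63 TPM in controls, and Ccnd1 208 ± 32.4 TPM with mannose and 184 ± 55.4 TPM in controls (SD, n = 5 each). In CD8 libraries 7 of the 10 fibroblast markers tested were higher with mannose and 0 lower. Of the 6 carcinoma markers tested, 5 were higher and 1 lower. The part of other cells in these list values was not tested.

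An interaction term in a joint fit of the 16 libraries tested whether the mannose effect differed between CD8 cells and tumours. Of the members, 0 had a higher effect in CD8 cells and 2 a lower one, Pcna and Cenpa, while 11% of the 15498 genes were higher and 7.64% lower. The CD8 effect minus the tumour effect was -0.44 ± 0.13 for Pcna (SE, limma adjusted p = 0.02398) and -0.68 ± 0.20 for Cenpa (SE, limma adjusted p = 0.0279), on the log2 scale. Both had a positive difference in tumours and a negative one in CD8 cells. Neither passed in tumours, and in CD8 cells Cenpa passed and Pcna did not (limma adjusted p = 0.0102 and 0.253). For Cdca3 the CD8 effect minus the tumour effect was -0.75 ± 0.27 and did not pass (SE, limma adjusted p = 0.0705).

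The 3 members that rose in CD8 cells did not pass this test. The interaction was 0.02 for Hmmr (95% interval -0.57 to 0.61), 0.09 for E2f1 (95% interval -0.30 to 0.49) and 0.28 for Plk1 (95% interval -0.37 to 0.93). The intervals hold values as large as the CD8 effects themselves. The calls of Pcna and Cenpa were both lost with quantile normalization (limma adjusted p = 0.239 and 0.105), with median-ratio scaling (0.0678 and 0.0717) and with the V segment sharing pairs averaged (0.109 and 0.102). Both were also lost without CD8 control 3 (0.0647 and 0.0817), CD8 mannose 1 (0.0837 and 0.0945) or CD8 mannose 2 (0.0642 and 0.0601), and Cenpa without CD8 control 2 (0.0533). Without tumour control 3, 5 members had a lower effect in CD8 cells, where 18.5% of all genes were called in either direction.

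Of the 183 other cell cycle genes, 5 had a higher effect in CD8 cells and 5 a lower one, while 11% of all genes were higher and 7.64% lower. Among the list genes the split was 5 and 8 with median-ratio scaling and 2 and 2 with the V segment sharing pairs averaged. The higher ones were Ccnd1 (1.60 ± 0.38), Klf4 (1.15 ± 0.37), Myc (1.04 ± 0.21), Tob1 (1.02 ± 0.27) and E2f6 (0.71 ± 0.21). The lower ones were Lin54 (-1.12 ± 0.26), Btg1 (-0.96 ± 0.22), Lmnb1 (-0.94 ± 0.31), Cdkn1a (-0.80 ± 0.24) and Pdcd4 (-0.54 ± 0.17). Leaving out 1 library at a time lost the call in 13 of 16 fits for Klf4 and 12 for Lmnb1. It lost the call in 9 fits each for Cdkn1a and Pdcd4, 5 for E2f6 and 1 for Tob1. Ccnd1, Myc, Lin54 and Btg1 were kept each time. In the replication list none passed, and the smallest p belonged to Dbf4 (-0.63 ± 0.22) and the nuclease helicase Dna2 (-0.55 ± 0.21; SE in each case).

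Control CD8 libraries were last set against control tumours, which places the members in sorted cells beside the tissue, although tissue, sort and the differing gene tables cannot be told apart. Of the 41 members, 12 were higher in CD8 cells, 7 lower and 22 did not pass, while 64.8% of 14487 genes passed, 37.7% higher and 27.1% lower. That is 5459 genes higher and 3930 lower, a split of 4828 and 5270 with quantile normalization. The comparison shares its CD8 controls with the CD8 mannose comparison and its tumour controls with the tumour mannose comparison. All 14 T cell markers were higher in CD8 controls. Of the 6 carcinoma markers tested, 5 were lower and 1 higher. Of the 10 fibroblast markers tested, 7 were lower and 1 higher. Also higher were 11 of the 12 macrophage, 3 of the 3 NK cell and 3 of the 5 dendritic cell markers tested, and the part of these cells in the member values was not tested.

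On the higher side, Mki67 averaged 41.7 ± 6.32 TPM in CD8 controls (SD, n = 3) and 14.6 ± 5.61 TPM in tumour controls (SD, n = 5), a log2 difference of 1.52 ± 0.29 (SE, limma adjusted p = 0.00131). Cenpa averaged 193 ± 14.3 TPM in CD8 controls and 76.95 ± 10.2 TPM in tumour controls, a log2 difference of 1.32 ± 0.14 (SE, limma adjusted p = 2.82e-05). The replication genes Mcm4 (1.25 ± 0.19), Pcna (0.93 ± 0.11) and the cyclin E genes Ccne2 (0.96 ± 0.22) and Ccne1 (0.61 ± 0.22) were higher as well. So were the spindle genes Nusap1 (1.15 ± 0.15), Kif11 (0.88 ± 0.20) and Kif23 (0.61 ± 0.21), with Cenpe (0.79 ± 0.23), Cdca8 (0.69 ± 0.19) and Top2a (0.72 ± 0.15; log2 differences with SE).

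On the lower side, the spindle pole kinase Aurka averaged 12.6 ± 2.46 TPM in CD8 controls and 30.8 ± 9.19 TPM in tumour controls (SD, n = 3 and 5), a log2 difference of -1.20 ± 0.24 (SE, limma adjusted p = 0.00152). Plk1 averaged 18.5 ± 1.05 TPM in CD8 controls and 40.7 ± 14.97 TPM in tumour controls (-1.03 ± 0.26), and Gins2, a cofactor of the helicase, 13.8 ± 0.963 TPM in CD8 controls and 28.3 ± 3.39 TPM in tumour controls (-0.98 ± 0.15). The APC/C activator Cdc20 (-0.85 ± 0.23), its ubiquitin conjugating enzyme Ube2c (-0.64 ± 0.17), E2f1 (-0.61 ± 0.17) and Birc5 (-0.34 ± 0.13) were lower too. By role, 4 of 7 mitotic kinase, checkpoint and APC/C members were lower and 0 higher, while 3 of 6 spindle members were higher and 0 lower. None of the 3 nucleotide supply or the 4 mitotic cyclin and Cdk1 members passed.

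The summed helicase and clamp members over the summed mitotic kinase, checkpoint and APC/C members gave 3.53 to 3.85 in CD8 controls and 1.54 to 1.80 in tumour controls. With mannose the ratio was 3.25 to 3.88 in CD8 cells and 1.58 to 2.06 in tumours. Its values were apart between the tissues in both groups and overlapped between mannose and control within each. It carries no test. Its role groups were compared above in these same control libraries, so the separation of the controls is no separate evidence. Other scalings changed the split of the members, to 9 higher and 14 lower with quantile normalization and 12 higher and 12 lower with median-ratio scaling. Of all genes, 69.7% and 68.4% were called with those scalings, in either direction. Without tumour control 3, 19 members were higher, and without tumour control 1, 11 were lower, where 63.9% and 73.3% of all genes were called in either direction.

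**Figure D5:**
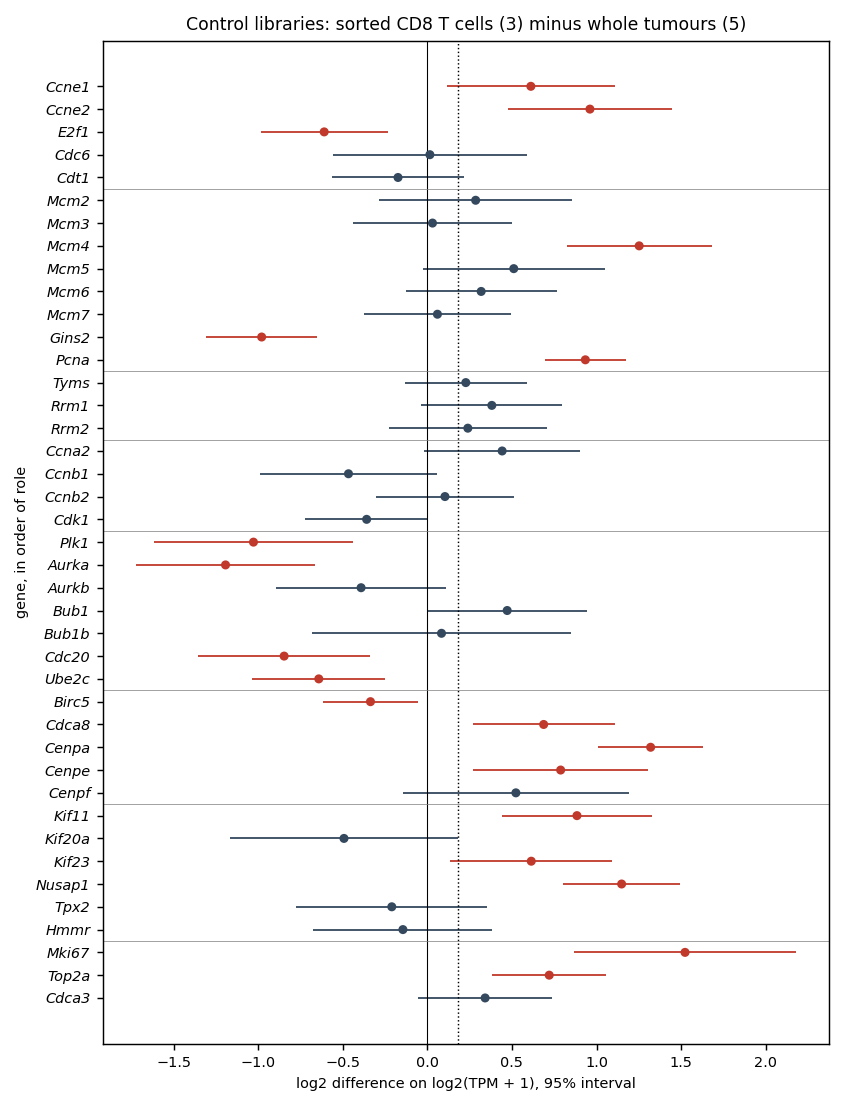
Log2 difference between control CD8 T cells (n = 3) and control tumours (n = 5) for each member with its 95% interval, with red for an adjusted p under 0.05 and a dotted line at the median of all genes. The 12 higher members reach up to Mki67 at 1.52 and the 7 lower ones down to Aurka at -1.20.

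Beside the tumour levels, the 5 members called in the CD8 mannose comparison lay as follows. E2f1 averaged 16 TPM in CD8 mannose and 12.5 TPM in CD8 control libraries, and 23.5 TPM in tumour mannose and 19.9 TPM in tumour control libraries. Plk1 averaged 24.5 TPM in CD8 mannose and 18.5 TPM in CD8 control libraries, and 42.2 TPM in tumour mannose and 40.7 TPM in tumour control libraries. Hmmr averaged 13.1 TPM in CD8 mannose and 8.76 TPM in CD8 control libraries, and 14.4 TPM in tumour mannose and 9.97 TPM in tumour control libraries. Cenpa averaged 137 TPM in CD8 mannose and 193 TPM in CD8 control libraries, and 88.2 TPM in tumour mannose and 76.95 TPM in tumour control libraries. Cdca3 averaged 24.4 TPM in CD8 mannose and 33.9 TPM in CD8 control libraries, and 33.4 TPM in tumour mannose and 27.01 TPM in tumour control libraries. Of the 6 carcinoma markers tested, 5 were higher and 1 lower in CD8 mannose than in CD8 control libraries. The part of tumour RNA in the values of the 5 members was not tested.

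Of 182 other cell cycle genes, 74 were higher and 20 lower in CD8 controls, while 37.7% of all genes were higher and 27.1% lower. The list genes split into 55 higher and 43 lower with quantile normalization. In the replication list 28 were higher and 4 lower of 49, with the single strand binding protein gene Rpa2 (1.79 ± 0.15), the checkpoint mediator Clspn (1.70 ± 0.33) and the fork protein Wdhd1 (1.31 ± 0.21) higher and the polymerase subunit Pold2 (-1.47 ± 0.29) lower. In the G1 list 12 were higher and 6 lower of 27, with the retinoblastoma relative Rbl2 (3.20 ± 0.31) and the inhibitor gene Cdkn2a (3.18 ± 0.30) higher. The D cyclins stood on opposite sides. Cyclin D2 (Ccnd2) averaged 31.5 ± 0.445 TPM in CD8 controls and 5.14 ± 2.602 TPM in tumour controls (2.52 ± 0.35), and Ccnd1 averaged 30.2 ± 9.87 TPM in CD8 controls and 184 ± 55.4 TPM in tumour controls (-2.55 ± 0.32; log2 differences with SE, n = 3 and 5).

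Beside the last 3 lists, 37.7% of all genes were higher and 27.1% lower. The genes named are those with the largest differences. In the mitotic kinase and checkpoint list 9 were higher and 3 lower of 31. Among them were Lin54 (3.02 ± 0.22), Chek1 (1.15 ± 0.17), the APC/C subunit Cdc27 (1.10 ± 0.28) and Pttg1 (1.03 ± 0.11), all higher. In the kinetochore and cytokinesis list 19 were higher and 5 lower of 59, among them the condensin subunits Smc4 (2.34 ± 0.19) and Ncapg2 (1.62 ± 0.21), Lmnb1 (2.00 ± 0.25) and the chromatin protein Hmgb2 (1.61 ± 0.18), all higher. In the brake and quiescence list 6 were higher and 2 lower of 16, among them Btg2 (2.74 ± 0.14), Pdcd4 (2.66 ± 0.14), Btg1 (2.34 ± 0.12) and Foxo1 (1.93 ± 0.26), all higher (log2 differences with SE).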

How the data were processed

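Total RNA was extracted with TRIzol from 10 whole tumours and 6 samples of sorted CD8 T cells and sequenced. The authors deposited 1 table of TPM values per sample. HISAT, RSEM and fastp are listed in the submitters' processing notes with the build GRCm39 but no versions or roles. The annotation is not given in the sources used here. Any error in how the authors shared reads among related genes would carry into the TPM values, and TPM keeps no depth.

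Entries with the same symbol were summed. Values were analysed as log2(TPM + 1) with limma 3.58.1 (variance trend, R 4.3.3), two-sided, with Benjamini-Hochberg adjustment over all genes tested and a threshold of 0.05. Genes needed 1 TPM in at least 5 libraries for the tumours and 3 for the other fits. The comparisons were mannose against control in each tissue, their interaction over all 16 libraries, and CD8 against tumour controls. Tables and figures were made with Python 3.11.15, pandas 2.3.3, numpy 2.4.6 and matplotlib 3.10.9, and the fits were tested on simulated data. A group is given by its treatment and tissue labels.

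Genes named are the 41 members and, from each list of other cell cycle genes, up to 4 genes past the threshold with the largest difference or, where none passed, the 2 with the smallest p, of which 1 is not reported here. The members and lists were chosen with earlier results of these data known. Alternatives were a pseudocount of 0.1, no filter on low values, quantile and median-ratio scaling, scaling to T cell markers, a replicate block, 1 joint fit, averaged CD8 pairs, and leaving out libraries.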

Additional observations from a re-analysis of the deposited data

Results flagged for a closer look

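In control tumours, 1 library stood far from the other 4 for 6 members by Dixon's test, and in each case it was control 3 on the high side. Its levels there were 16.51 TPM for the licensing factor Cdc6, 63.82 TPM for Tyms, 66.17 TPM for the mitotic cyclin Ccnb2, 80.56 TPM for Cdc20, 39.43 TPM for Cdca8 and 14.02 TPM for Nusap1. The test was run on 82 groups of values, and chance alone gives such a value in about 1 group in 20. Control 3 held the highest control value for 36 of the 41 members, against 35.6% of all genes. The 6 values are therefore not separate events, and the share of all genes flagged in this way is not known.

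The mannose effect in CD8 cells minus that in tumours was -0.44 on the log2 scale for Pcna and -0.68 for Cenpa, both past the threshold of the interaction test (limma adjusted p = 0.02398 and 0.0279). Both calls were lost with quantile normalization, with median-ratio scaling and with the CD8 pairs averaged.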

How the results depend on the processing

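In CD8 cells, members higher with mannose numbered 1 without a filter, 1 with median-ratio scaling, 0 in 1 fit of all 16 libraries (with 1 lower), 0 with the CD8 pairs averaged (0 lower, and 1091 of all genes higher and 561 lower) and 23 with T cell marker scaling (0 lower, and 6154 of all genes higher and 389 lower). Of all genes, 14.8% without a filter, 35.6% with median-ratio scaling and 25.8% in the 1 fit were called in either direction. Members with a lower effect in CD8 cells numbered 0 with quantile normalization (24% of all genes called in either direction) and 1 with median-ratio scaling (23.5%). With the CD8 pairs averaged they numbered 0 (1068 of all genes higher and 605 lower). Members lower in CD8 than in tumour controls numbered 14 with quantile normalization and 12 with median-ratio scaling (69.7% and 68.4% of all genes called in either direction). Leaving out 1 library at a time gave 0 to 4 members higher and 1 to 3 lower in CD8 cells, with 1909 to 3610 of all genes higher and 894 to 2509 lower. It gave 0 to 5 members with a lower interaction (1146 to 2630 of all genes higher, 759 to 1612 lower). Between tissues it gave 9 to 19 members higher and 6 to 11 lower (4829 to 5788 of all genes higher, 3414 to 4763 lower). Among the other cell cycle genes it gave 10 to 23 higher and 2 to 16 lower in CD8 cells, and 2 to 11 higher and 2 to 8 lower in the interaction. In tumours it gave 0 to 1 of all genes higher, the 1 without mannose 4. The sign turned in tumours for 8 of the 41 members with median-ratio scaling and for 4 with quantile normalization. In CD8 cells it turned for 9 and 7 members under those scalings and for 14 with T cell marker scaling. In the interaction it turned for 5 members with quantile normalization. Not all of these are named here. Signs turned, among others, for Plk1 in tumours (-6.134e-05 with median-ratio scaling, -0.061 without control 1 and mannose 3, -0.024 to 0.28 leaving out 1 library). In CD8 cells they turned for Pcna (0.068 with quantile normalization, 0.55 with T cell marker scaling), for Mki67 (-0.014 with median-ratio scaling, -0.051 to 0.19 leaving out 1 library) and, with T cell marker scaling, for Cdca8 (0.32), Cenpa (0.18), Cdca3 (0.19) and Pttg1 (0.19). For the interaction of Hmmr they turned with quantile normalization (-0.019) and leaving out 1 library (-0.11 to 0.16). The cause was not tested, except that T cell marker scaling raises nearly every gene in the CD8 mannose libraries by construction. Deviations of same-numbered replicates correlated at -0.511 to 0.28 in tumours and 0.0565 to 0.163 in CD8 cells, not all over 0.1, so the numbers were not taken to pair the samples, although 1 of 5 tumour and 2 of 3 CD8 pairs matched best with their own number. With a replicate block, 1 member was higher in CD8 cells, 0 had a lower interaction and 13 were called between tissues. Of all genes, 33.9%, 16.1% and 52.9% were called in those fits, in either direction. Of the other cell cycle genes, 44 were then higher in CD8 than in tumour controls.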
